A study of Mus musculus with 4 samples.

Results

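Cells of the diaphragm of mdx5cv/Ccr2-/- mice were compared with cells of the diaphragm of mdx5cv mice, with 1 single-cell library a side. A barcode entered the comparison with at least 500 UMIs (unique molecular identifiers, each counting 1 captured RNA molecule), at least 300 detected genes and at most 15% mitochondrial UMIs. This left 19028 of the 31077 barcodes that passed in the whole series, 12582 from the mdx5cv diaphragm and 6446 from the mdx5cv/Ccr2-/- diaphragm. All mice were 14 weeks old and both groups carried the mdx5cv allele, a mutation of the dystrophin gene Dmd that models Duchenne muscular dystrophy. The mdx5cv/Ccr2-/- mice lacked the chemokine receptor gene Ccr2 in addition, and the control mice differed from wild type by mdx5cv itself, so no healthy muscle was part of the comparison. RNA was read from the 3′ end of transcripts in droplets, 1 barcode to a droplet. The series also holds the quadriceps of both genotypes, whose values are given beside those of the diaphragm. The labels call the material mononuclear cells of skeletal muscle and do not give the number of animals in a library or the genetic background of the deletion.

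CCR2 is the receptor by which classical monocytes follow chemokines such as CCL2 and CCL7 out of the bone marrow and into inflamed tissue. The genes read below as its ligands are Ccl2, Ccl7, Ccl8 and Ccl12. In the tissue the monocytes turn into macrophages and some dendritic cells. In dystrophic muscle these cells meet resident macrophages, fibro-adipogenic progenitors (FAPs, the fibroblasts that lay down matrix), vessel cells, and muscle stem cells that divide, commit and fuse into new fibres. The diaphragm is the muscle of mdx mice in which loss of fibres and fibrosis go furthest.

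The mdx5cv library held 92189580 UMIs over 13175 deposited barcodes and the mdx5cv/Ccr2-/- library 67356144 UMIs over 7048 barcodes. The barcodes with the highest doublet scores, 11.04% and 6.159% of those that passed, were removed as likely doublets, which left 11193 and 6049 cells. The number removed was set by the count of deposited barcodes and does not measure a rate of doublets. Median depth was 5857 and 8962 UMIs a cell, and the median share of mitochondrial UMIs was 3.43% and 3.58%. The libraries shared 17 barcodes, 0.264% of the smaller one. Classes were named from RNA markers after clustering all 4 libraries together, so each class name stands for cells like that type. With 1 library a side no difference has a replicate check: ratios below (mdx5cv/Ccr2-/- over mdx5cv) carry exact 95% intervals that cover counting error only, and no p-value is given. The animals of a library, its dissection and its genotype cannot be told apart.

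Ccr2 itself was lower in every class that transcribed it in the mdx5cv diaphragm, and its transcripts were not gone. Over all cells it stood at 137 CPM (UMIs of the gene scaled to a common total of UMIs) with the intact gene and at 8.55 CPM with the deleted one, a ratio of 0.0626 (0.0572 to 0.0684). In macrophages it was 510 and 29.2 CPM, in dendritic cells 671 and 129 CPM, and in T, NK and innate lymphoid cells 416 and 76.5 CPM. After each cell was thinned to 2000 UMIs, 40.5% of 1434 macrophages and 3.74% of 401 had a Ccr2 UMI, at median depths of 6604 and 9950 UMIs before thinning. The same share in tenocytes, which should lack the gene, was 1.14% and 0.324% at median depths of 7854 and 9954 UMIs. Before thinning the macrophage shares were 49.6% and 12.6%. Dendritic cells kept a Ccr2 UMI in 22.2% of 144 thinned cells against 55.8% of 477 (51.7% and 74.1% unthinned), above that background. The reads come from the 3′ end of transcripts, the deleted part of the gene is not given in the sources used here, and so a remaining UMI does not say whether a receptor can be made.

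The make-up of the tissue differed first of all in its immune cells. Immune classes together were 27.9% of cells in the mdx5cv diaphragm and 15.3% in the mdx5cv/Ccr2-/- diaphragm, a ratio of 0.549 (0.510 to 0.591). The lowest ratio among them, 0.225 (0.161 to 0.307), was that of the monocyte/macrophage cluster led by Spp1, Lgals3, Ly6c2 and Chil3. It had 370 and 45 cells, or 3.31% and 0.744% of all cells. Macrophages went from 13.5% to 6.83%, and their clusters did not move alike. The cluster led by Apoe, Ms4a7 and Cx3cr1 held 1064 of 11193 and 148 of 6049 cells. The cluster led by Ccl8, Cd163 and F13a1 held 420 and 242 cells, and dividing macrophages 24 and 23. The shares of these last clusters were not lower. Dendritic cells went from 4.56% to 2.50%, and group 2 innate lymphoid cells, which make amphiregulin and type 2 cytokines, from 1.22% to 0.645%. B cells went from 2.33% to 1.31%, a ratio of 0.560 (0.430 to 0.723). T, NK and innate lymphoid cells as a whole had similar shares, 4.09% and 3.62%, with an interval of the ratio (0.750 to 1.04) that holds 1. Neutrophils were few in both, at 14 and 19 cells.

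Shares are parts of a whole, so a lower immune share raises the share of every other class. For that reason the remaining classes were also set against non-immune cells alone. Tenocytes, the fibroblasts of tendon that make tenomodulin and fibromodulin, were 177 and 314 cells, or 2.19% and 6.13% of non-immune cells, a ratio of 2.80 (2.32 to 3.38). Endothelial cells were 6.93% and 12.3% (ratio 1.78, 1.58 to 1.99), and mural cells, the pericytes and smooth muscle around vessels, 1.05% and 1.54%. FAPs and fibroblasts, the largest class, were 77.3% and 69.7% of non-immune cells. Lymphatic endothelial cells were lower, at 3.34% and 2.15%, as were myogenic cells at 4.30% and 2.73%. Mesothelial cells, the lining of the diaphragm surface, were 95 cells in one library and 9 in the other. Tendon and surface lining are taken or left by the line of dissection, and the part of dissection in these 2 shares was not tested.

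**Figure D1:**
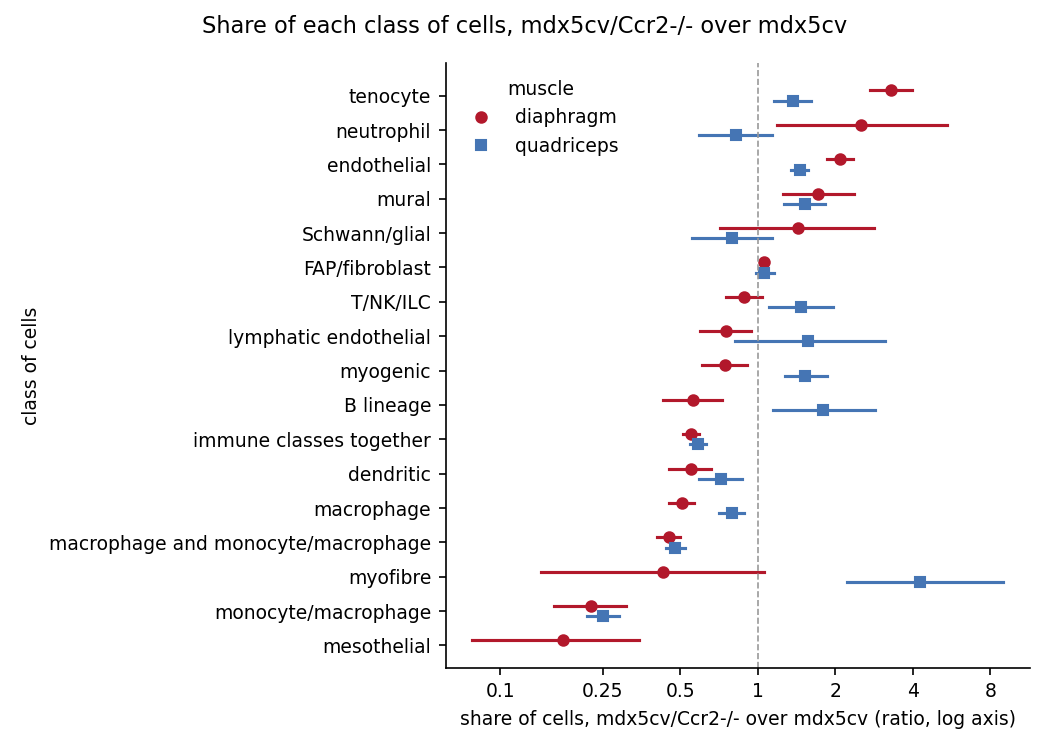
Ratio of the share of all cells in each class, mdx5cv/Ccr2-/- over mdx5cv, on a log axis, with points for the ratio and lines for the exact 95% interval of counting error; red circles are the diaphragm and blue squares the quadriceps. In the diaphragm the immune classes together sit at 0.549, tenocytes at 3.28 and endothelial cells at 2.09, and myogenic and B lineage cells lie left of 1 in the diaphragm and right of 1 in the quadriceps.

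Genes were compared within the 8 classes that had at least 100 cells in both diaphragm libraries, by summing UMIs over the cells of a class. A gene counted as measured with a mean of at least 20 CPM and at least 50 UMIs, and as past the fold at a ratio of at least 1.5 or at most 0.667. The share of measured genes past the fold in either direction was 1.07% in FAPs and 9.62% in macrophages. These shares move with the number of UMIs in a class. With every class cut to the same 540756 UMIs a side, the shares were 8.83% in FAPs, 9.01% in endothelial cells and 16.9% in macrophages. Counting error adds to the shares at this depth, and in FAPs the share rose from 1.07% to 8.83% by thinning alone. At this equal depth macrophages had the highest share of the 8 classes. FAPs and endothelial cells had the lowest, too close to rank from 1 random draw.

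FAPs and fibroblasts, 6237 and 3573 cells, had nearly equal levels of matrix genes and lower levels of stimulus and stress genes without Ccr2. Of 5693 measured genes, 23 (0.404%) were past the fold upwards and 38 (0.667%) downwards. Of 18 measured collagen chains 1 was higher and none lower, with a median log2 ratio of 0.10 against 0.036 over all genes of the class. Col1a1 and Col3a1 encode the fibrillar collagens that make up most of a scar. Col1a1 stood at 6477 CPM in the mdx5cv diaphragm and 7517 CPM in the mdx5cv/Ccr2-/- diaphragm, a ratio of 1.16, and in the 8 FAP clusters taken one at a time its ratio ran from 1.07 to 1.24. Col3a1 ran from 0.937 to 1.19 over those clusters. The 1 collagen past the fold was Col11a1, a minor fibrillar chain of cartilage and tendon, at 12.4 and 30.7 CPM (ratio 2.48, 2.24 to 2.74).

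The other matrix lists of the FAPs were equally flat. Of 38 matrix glycoproteins and proteoglycans 1 was past the fold: Comp, a pentameric protein of tendon and cartilage matrix, at 64.6 and 120 CPM. Fn1, which encodes fibronectin, came next at 773 and 1092 CPM, a ratio of 1.41. Col11a1 and Comp, both genes of tendon, were not read by FAP cluster. Markers of tenocytes (9 genes, Comp among them) summed to 2691 and 3111 CPM in FAPs. The FAP cluster led by Sfrp2, Eln and Angptl7 held 770 and 689 cells. With the diaphragm clustered alone, a cluster led by Sfrp2, Angptl7, Comp and Tnmd (542 and 590 cells) had no name. The part of such cells in Col11a1 and Comp was not tested. Of 14 genes of activated fibroblasts only Col11a1 was past the fold. Postn, the periostin gene of injured muscle, had 1903 and 2164 CPM, Tnc 158 and 195 CPM and Cthrc1 158 and 140 CPM. Of 17 TGF-β targets none was higher. In the quadriceps the same lists held 9 of 19 collagens, 12 of 16 activated fibroblast genes and 7 of 18 TGF-β targets past the fold upwards, where 3.41% of all genes measured in quadriceps FAPs were. The cluster led by Ptn, Cthrc1 and Postn had 229 and 858 quadriceps cells, against 908 and 569 of the diaphragm, and the difference between the muscles was not tested.

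**Figure D2:**
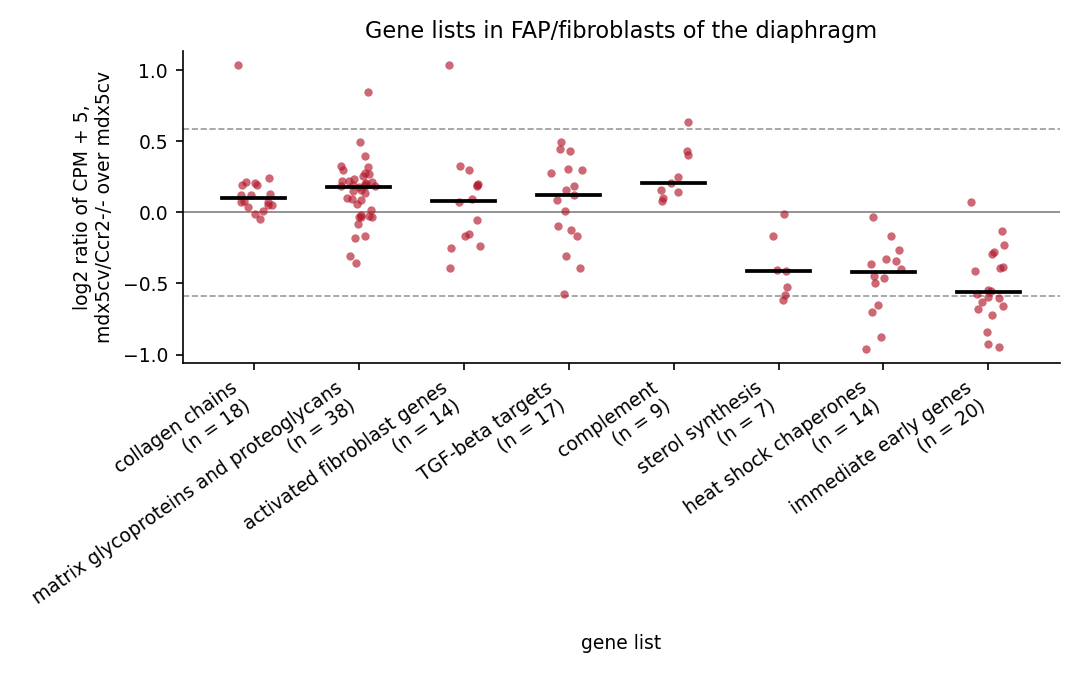
Log2 ratio of CPM + 5 in FAPs and fibroblasts of the diaphragm (mdx5cv/Ccr2-/- over mdx5cv), 1 point per measured gene, by gene list; black bars are medians, the solid line marks equal levels and dashed lines a 1.5-fold difference. Collagens centre on 0.10 and matrix glycoproteins on 0.18, while immediate early genes centre on -0.56, heat shock chaperones on -0.42 and sterol genes on -0.41.

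Immediate early genes, the transcription factors switched on within minutes of a stimulus, formed the largest group of lower genes in FAPs: 10 of 20 were past the fold downwards and none upwards, with a median log2 ratio of -0.56. Egr1 stood at 1002 and 556 CPM (ratio 0.555), Fos at 641 and 387 CPM (0.604), Atf3 at 107 and 53.0 CPM (0.495) and Fosb at 120 and 60.7 CPM (0.507). Every one of the 8 FAP clusters had lower levels: Egr1 ratios ran from 0.388 to 0.706 and Fos from 0.477 to 0.702. Of 14 heat shock chaperones 4 were lower, among them Hspb1, a small chaperone that binds actin, at 671 and 342 CPM, and Dnajb1, a partner of HSP70, at 202 and 108 CPM. Both groups of genes also respond to the dissociation of tissue, and the part of handling was not tested. In quadriceps FAPs none of 18 immediate early genes was higher and 3 were lower, where 3.45% of all genes were lower.

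Among the chemokines of the FAPs, Cxcl1 and Cxcl10 were lower past the fold and the ligands of CCR2 were not past it. Cxcl1, a chemokine that draws neutrophils, stood at 128 CPM in the mdx5cv diaphragm and 55.2 CPM in the mdx5cv/Ccr2-/- diaphragm, a ratio of 0.431 (0.411 to 0.453), and it was below 1 in all 8 clusters (0.241 to 0.713). After thinning, 12.5% and 6.63% of FAPs had a Cxcl1 UMI at median depths of 6418 and 10151 UMIs. T, NK and innate lymphoid cells, which should lack it, showed 2.30% and 0.481% at median depths of 3284 and 5009 UMIs. Without thinning the FAP shares were 21.9% and 16.9%. The ligands of CCR2 had slightly lower pooled levels: Ccl2 had 159 and 148 CPM, Ccl7 104 and 76.1 CPM and Ccl8 29.9 and 23.8 CPM, none past the fold. Over the 8 clusters the Ccl2 ratio ran from 0.130 (36 and 4 UMIs) to 2.77 in the cluster led by Ptn, Cthrc1 and Postn. In the cluster led by Ptx3 and Ccl2, which held most of the transcripts, Ccl2 had 1889 and 2750 CPM (1.46, 1.40 to 1.51). In the quadriceps the FAP ratios of Ccl2 and Ccl7 were 0.285 and 0.304. The T cell chemokine Cxcl10 was lower in diaphragm FAPs, at 41.8 and 15.4 CPM (0.367).

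A small set of FAP genes was higher. Anpep, the surface peptidase CD13, stood at 72.3 and 138 CPM (ratio 1.90, 1.82 to 1.99). Adam9, a membrane protease that sheds growth factors, stood at 42.0 and 77.0 CPM (1.84, 1.73 to 1.94). Fmo2, a flavin monooxygenase, had 105 and 173 CPM (1.64). Anpep and Adam9 were above 1 in each of the 8 clusters, from 1.74 to 1.98 for Anpep and 1.66 to 3.11 for Adam9. The complement genes C3, at 692 and 916 CPM, and C4b, at 24.8 and 35.2 CPM, were not past the fold. In the quadriceps Anpep and Adam9 had ratios of 0.798 and 0.881, and the difference between the muscles was not tested. Col4a5, a chain of basement membrane, was likewise 1.55 in the diaphragm (44.5 and 69.0 CPM) and 0.430 in the quadriceps.

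Sterol genes were lower in FAPs. Of 7 measured members 3 were past the fold, among them Fdps, which makes farnesyl diphosphate, at 45.2 and 27.7 CPM, and Cyp51, a demethylase of lanosterol, at 35.3 and 22 CPM. The median log2 ratio was -0.41, and the quadriceps showed 11 of 12 members lower, against 3.45% of all genes there. Other cell types left traces in the FAP sums: haemoglobin transcripts summed to 108 and 3.42 CPM, markers of macrophages (11 genes) to 229 and 174 CPM and markers of myofibres (9 genes) to 66.3 and 51.9 CPM. No marker of macrophages was at 0 in either library. Their part in the FAP results was not tested.

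Tenocytes had nearly equal levels of their identity genes. Of 5506 measured genes, 153 (2.78%) were past the fold upwards and 87 (1.58%) downwards. Of 13 tenocyte genes 1 was higher and 1 lower: Comp at 445 and 669 CPM (ratio 1.51) and Egr1 at 535 and 336 CPM. Tnmd, the tenomodulin gene of mature tendon, had 1059 and 1047 CPM, and Thbs4, a matrix protein of muscle-tendon junctions, 6760 and 6577 CPM. Collagens showed 1 of 20 past the fold, Col11a1 at 244 and 367 CPM, against 10 of 20 in the quadriceps, where 4.42% of all genes were higher. The gene with the highest ratio by the naming rule was Clec3b, which encodes the plasminogen-binding protein tetranectin, at 263 and 537 CPM (2.04, 1.83 to 2.27). It is also a fibroblast gene, and tenocytes held 41.0% of its level in the class where it was highest. After thinning, 30.9% of 175 and 54.4% of 309 tenocytes had a Clec3b UMI, against 2.16% and 0.998% of macrophages at median depths of 6604 and 9950 UMIs. The unthinned tenocyte shares were 50.3% and 77.1%. Chad, which encodes the matrix protein chondroadherin, and Angptl7, a secreted angiopoietin-like protein, were higher in diaphragm tenocytes (55.0 and 97.7 CPM, 289 and 502 CPM) and lower in quadriceps tenocytes (ratios 0.415 and 0.387). Among lower genes, Timp1, an inhibitor of matrix metalloproteinases, stood at 408 and 234 CPM (0.574), and 7 of 20 immediate early genes were past the fold, Fosb lowest at 119 and 40.8 CPM.

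Endothelial cells numbered 559 and 630, and genes of the vessel types had nearly equal levels. Of 5809 measured genes, 65 (1.12%) were past the fold upwards and 116 (2.00%) downwards. None of the 14 capillary, 11 arterial, 8 venous or 11 angiogenic genes was past the fold in either direction. Gpihbp1, which anchors lipoprotein lipase in capillaries, had 1393 and 1520 CPM, and Cd36, the fatty acid transporter, 3342 and 3985 CPM. None of the 9 adhesion genes that guide leukocyte entry was past the fold, Icam1 having 50.7 and 49.6 CPM and Vcam1 33.3 and 36.9 CPM. The transcription factor Sox18, which acts in vessel and lymphatic development, led the higher genes at 171 and 340 CPM (ratio 1.99, 1.76 to 2.25). It was higher in all 4 endothelial clusters, from 1.77 to 2.26, and 30.9% and 45.4% of thinned cells had a Sox18 UMI against 0.0334% and 0.201% of FAPs. The median depths before thinning were 2964 and 4600 UMIs in endothelial cells, and the unthinned shares 41.5% and 70.2%. Tbx3, Casz1 and Aqp7 were also past the fold, with ratios of 1.73, 1.71 and 1.68.

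The lower endothelial genes included 2 of the lists. Stimulus genes were one: Klf2, the factor that laminar flow induces, stood at 1251 and 676 CPM (0.540), Apold1, an early response gene of vessels, at 147 and 57.4 CPM (0.391, 0.325 to 0.469), Atf3 at 111 and 43.8 CPM and Egr1 at 264 and 111 CPM. In all, 9 of 19 immediate early genes were lower and none higher. The other was the interferon gamma response, 4 of 17 members lower and none higher. Cxcl9, a chemokine for T cells, had 122 and 47.6 CPM (0.391), and the guanylate-binding proteins Gbp3, Gbp7 and Gbp5 had ratios of 0.544, 0.557 and 0.636. Cxcl9 was carried by the cluster with capillary genes and by the one led by Prnd and Apln, where it had 157 and 144 UMIs and 92 and 10 UMIs. Type I interferon genes were lower in 4 of 27, with Ifi27l2a at 184 and 87.4 CPM and Irf7 at 136 and 81.6 CPM. In the endothelial cluster led by Sema3g and Gja5 (80 and 99 cells), 7 of 23 type I interferon genes were higher and none lower, and of 10 interferon gamma genes 4 were higher and 2 lower, where 10.8% of all genes were higher and 4.73% lower. Rgs5, a pericyte gene at 226 and 92.8 CPM in endothelial sums, was lower in the quadriceps as well (0.436).

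Lymphatic endothelial cells numbered 270 and 110, and their sums are thin. Of 4426 measured genes, 312 (7.05%) were past the fold upwards and 177 (4.0%) downwards. Sox18 was higher here too, at 162 and 307 CPM (1.90, 1.51 to 2.39), as was Igfbp5, which binds insulin-like growth factors, at 2139 and 3861 CPM (1.81). Id3 and Id1, inhibitors of basic helix-loop-helix factors, had ratios of 0.357 and 0.498. Of 7 interferon gamma genes 5 were lower, Gbp3 and Gbp7 lowest with ratios of 0.452 and 0.495. Of 16 immediate early genes 5 were lower and 1, Socs3, higher.

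Muscle stem cells and their progeny had lower levels of fusion and fibre genes without Ccr2. The myogenic class had 347 and 140 cells. Of 5408 measured genes, 219 (4.05%) were past the fold upwards and 253 (4.68%) downwards. Genes of quiescent stem cells differed little in summed level: Pax7, the factor that defines the stem cell, stood at 181 and 196 CPM, and Myf5, an early myogenic factor, at 197 and 285 CPM. Of 19 measured quiescence genes none was higher and 1 lower, Cdkn1c, a cell cycle inhibitor, at 2794 and 1600 CPM. Cdkn1c also served as a marker of committed myoblasts when clusters were named, so its lower level is not particular to quiescence. Before thinning, Pax7 was found in 220 of 347 cells (63.4%, 58.1 to 68.5%) and 108 of 140 (77.1%, 69.3 to 83.8%), a higher share without Ccr2.

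Genes of commitment and fusion were lower. Of 20 activation and commitment genes 10 were past the fold downwards and 2 upwards, with a median log2 ratio of -0.66 against 0.0041 over all genes. Myog, the factor that starts terminal differentiation, stood at 723 and 247 CPM, a ratio of 0.342 (0.306 to 0.381). The fusion proteins of myoblasts followed, Mymk at 105 and 20.2 CPM and Mymx at 195 and 17.6 CPM (0.0899, 0.0588 to 0.132). All 12 measured sarcomere and myofibre genes were lower. Acta1, skeletal actin, had 969 and 30.6 CPM (0.0315), Mylpf, a light chain of fast fibres, 762 and 35.1 CPM, Ttn, the giant spring titin, 1575 and 473 CPM, and Myh3, the embryonic myosin of new fibres, 132 and 3.25 CPM (0.0246, 0.00793 to 0.0578).

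These differences rest on few cells. Myog was found in 57 of 347 cells (16.4%) and 15 of 140 (10.7%), Mymx in 38 and 3 cells and Myh3 in 18 and 2 cells. The 5 richest cells of the mdx5cv library held 1624 of its 2914 Acta1 UMIs and 314 of its 398 Myh3 UMIs, and the 5 richest of the other held 33 of 47 and all 5. After thinning, 16.5% of 291 and 7.09% of 127 cells had a Myog UMI, with overlapping intervals (12.4 to 21.3% and 3.29 to 13%), against 0.217% and 0.115% of FAPs. The median depths were 5716 and 6437 UMIs in myogenic cells and 6418 and 10151 UMIs in FAPs. Acta1 is also found as background, at 19.7 and 16.3 CPM in FAPs, so the 30.6 CPM of the mdx5cv/Ccr2-/- myogenic cells lies near it. In the quadriceps the commitment genes went the other way, 9 of 20 higher and 1 lower (3.44% and 1.61% of all genes), with ratios of 2.32 for Myog, 2.66 for Mymk and 1.53 for Mymx. The difference between the muscles was not tested.

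Cell cycle genes were higher in the myogenic class, 15 of 20 upwards and none downwards. Top2a, the topoisomerase of dividing cells, had 58.9 and 139 CPM (2.35, 1.92 to 2.89), Cdk1 21.6 and 74.1 CPM (3.43) and Mki67 58.5 and 95.6 CPM (1.63). The cells behind them were 25 and 14 for Top2a and 23 and 11 for Mki67. With each cell weighted alike the count was 7, and in cells thinned to equal depth it was 2. After thinning the shares of cells with a Mki67 UMI were 3.44% and 3.94%, and unthinned 6.63% and 7.86%, and a difference in the share of dividing cells was not detectable at this depth. In tenocytes, where division should be rare, the thinned shares were 0 of 175 cells, which allows up to 2.09%, and 0.647% of 309. Nppc, the gene of C-type natriuretic peptide, had the highest ratio among the genes that the naming rule admits, 5.02 (24.6 and 124 CPM). It came from 29 and 21 cells, and 1 cell held 61 of the 190 UMIs of the mdx5cv/Ccr2-/- library.

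**Figure D3:**
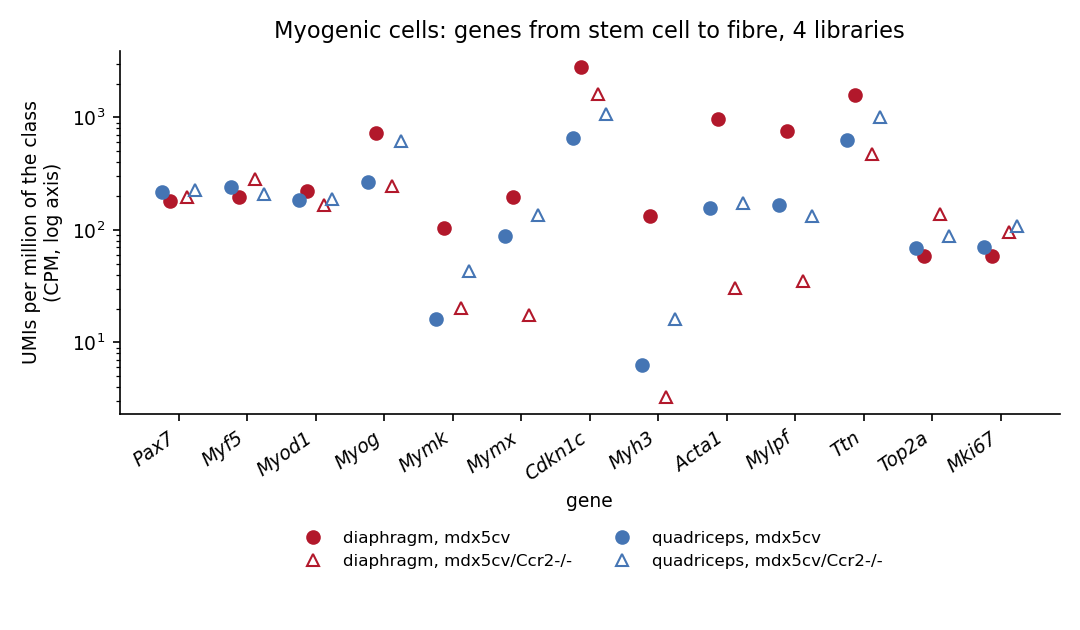
CPM in the myogenic class on a log axis, for genes ordered from stem cell (Pax7, Myf5) over commitment (Myog, Mymk, Mymx) and fibre (Myh3, Acta1, Mylpf, Ttn) to the cell cycle (Top2a, Mki67); filled circles are mdx5cv and open triangles mdx5cv/Ccr2-/-, red for the diaphragm and blue for the quadriceps, 1 library each. Pax7 lies between 181 and 228 CPM in all 4 libraries, while in the diaphragm Myog lies at 723 and 247 CPM and Acta1 at 969 and 30.6 CPM.

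Type I interferon response genes were lower in macrophages and dendritic cells of the mdx5cv/Ccr2-/- diaphragm. This signal runs from the interferon receptor to a short DNA element, the interferon-stimulated response element (ISRE). In macrophages 17 of 24 measured members were past the fold downwards and none upwards, in dendritic cells 13 of 22 and in T, NK and innate lymphoid cells 4 of 16. The share of all measured genes lower past the fold was 3.25% in macrophages, 3.64% in dendritic cells and 2.91% in the lymphocyte class. The medians of the log2 ratio were -0.59, -0.77 and -0.33. In the pooled FAPs none of 21 members was past the fold, with a median of -0.24. By cluster, 9 of 18 were lower in the FAP cluster led by Cxcl14 and Apod (110 and 78 cells), where 3.83% of all genes were, and 5 of 19 in the one led by Ptx3 and Ccl2, where 2.12% were. In the other 6 FAP clusters 0 to 3 members were lower, and no FAP cluster had one higher. The dendritic count moved to 20 with no filter on CPM and to 5 with the strict one, and the macrophage count to 11 with doublets kept.

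The sequences before the start of 3 of these genes and of 2 MHC class II genes are shown because members of each list share an element there. They are the 250 bases before the start site on the strand of the gene (RefSeq, GRCm38.p6). Capitals mark the core of the ISRE (2 GAAA blocks with 2 bases of any kind between them) or its reverse complement in the first 3, and GATTGG, the Y box bound by NF-Y, or its reverse complement in the last 2. The Isg15 window (chr4:156200819-156201068, minus strand) holds 3 overlapping copies starting 78, 72 and 66 bases before the start site. The Bst2 window (chr8:71537473-71537722, minus strand) holds 2 overlapping copies at 130 and 124 bases, and the Ifit3 window (chr19:34583279-34583528, plus strand) 2 on the opposite strand at 156 and 122 bases. H2-Aa (chr17:34287824-34288073, minus strand) has the Y box at 49 bases and H2-Eb1 (chr17:34305617-34305866, plus strand) at 60 and 35 bases.
Isg15: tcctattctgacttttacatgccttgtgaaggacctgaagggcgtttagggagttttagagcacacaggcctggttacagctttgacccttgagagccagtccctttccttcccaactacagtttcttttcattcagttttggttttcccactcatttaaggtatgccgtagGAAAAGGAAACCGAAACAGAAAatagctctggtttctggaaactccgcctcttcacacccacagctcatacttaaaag
Bst2: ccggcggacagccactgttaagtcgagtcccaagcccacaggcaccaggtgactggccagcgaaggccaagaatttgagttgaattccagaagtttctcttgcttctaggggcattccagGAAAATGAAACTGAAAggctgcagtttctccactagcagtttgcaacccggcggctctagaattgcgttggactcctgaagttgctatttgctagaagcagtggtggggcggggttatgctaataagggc
Ifit3: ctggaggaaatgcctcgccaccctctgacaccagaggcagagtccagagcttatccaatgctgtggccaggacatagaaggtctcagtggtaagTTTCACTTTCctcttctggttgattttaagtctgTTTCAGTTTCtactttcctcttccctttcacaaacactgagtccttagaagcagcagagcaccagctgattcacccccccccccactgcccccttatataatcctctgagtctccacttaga
H2-Aa: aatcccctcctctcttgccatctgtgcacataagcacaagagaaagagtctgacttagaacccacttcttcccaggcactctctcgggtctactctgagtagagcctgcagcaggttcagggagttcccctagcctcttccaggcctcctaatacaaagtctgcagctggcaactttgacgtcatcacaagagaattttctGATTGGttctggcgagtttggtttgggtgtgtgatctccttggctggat
H2-Eb1: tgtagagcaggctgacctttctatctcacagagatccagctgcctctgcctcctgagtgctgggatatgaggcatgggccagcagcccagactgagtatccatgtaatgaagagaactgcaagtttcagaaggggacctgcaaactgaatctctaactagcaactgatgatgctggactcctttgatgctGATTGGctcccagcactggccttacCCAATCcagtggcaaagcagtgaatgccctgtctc

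Over windows of 300 bases, which add the first 50 bases after the start, the ISRE letters stood in 12 of the 22 type I interferon genes that the promoter table holds (54.5%) and in 1079 of all 27025 genes (3.99%), both strands searched and overlapping matches kept. The Y box letters stood in all 7 matched MHC class II genes and in 4924 of all genes (18.2%). Isg15, a ubiquitin-like protein, stood in macrophages at 119 and 48.5 CPM (ratio 0.408) and in dendritic cells at 173 and 67.0 CPM (0.387). Ifit3, an antiviral partner of Ifit1, had 83.6 and 26.4 CPM in macrophages (0.316). Bst2, a tether of budding virus, had 311 and 276 CPM in dendritic cells (0.885), not past the fold, and 132 and 88.7 CPM in the lymphocyte class (0.672). A match describes these letters and does not show that a factor binds there, and genes with the element did not all move alike.

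**Figure D4:**
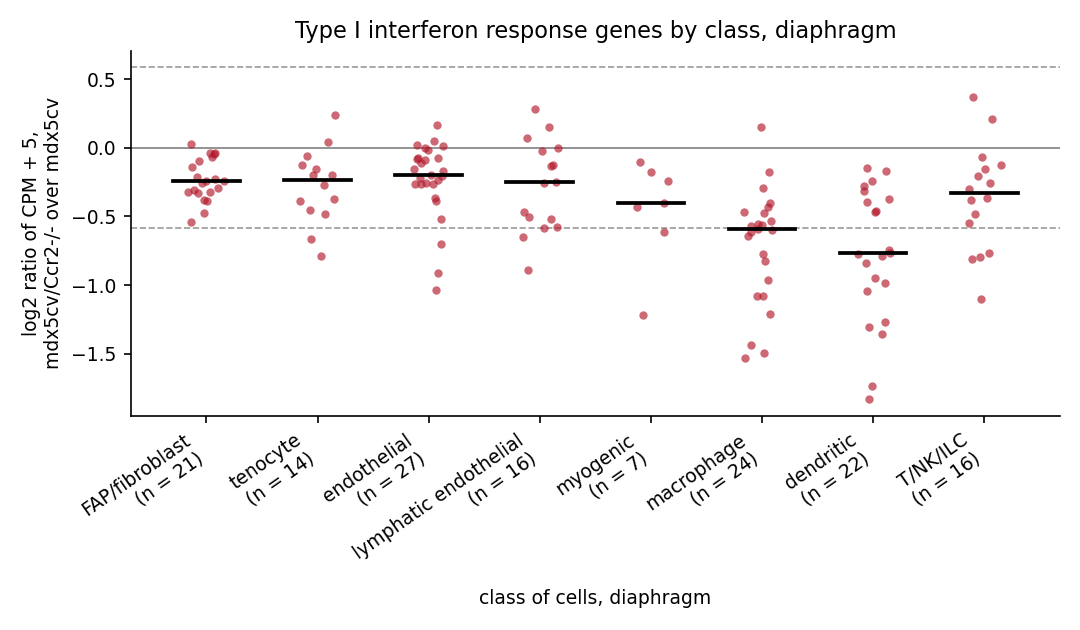
Log2 ratio of CPM + 5 (mdx5cv/Ccr2-/- over mdx5cv) of each measured type I interferon response gene in the 8 classes of the diaphragm; black bars are medians, the solid line marks equal levels and dashed lines a 1.5-fold difference. The bar lies at -0.59 in macrophages and -0.77 in dendritic cells, and at -0.24 in FAPs and -0.19 in endothelial cells.

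The macrophage class had 1508 and 413 cells, made of different mixtures, and its sums must be read by cluster. Of 5470 measured genes, 348 (6.36%) were past the fold upwards and 178 downwards. Cluster 4, led by Apoe, Ms4a7, Cx3cr1 and the C1q genes, held 1064 of the mdx5cv macrophages and 148 of the others. Cluster 9, led by Ccl8, Cd163, F13a1, Cbr2 and Folr2, held 420 and 242. Cluster 31, of dividing cells, held 24 and 23. Genes that define these clusters, such as Cd163 and Ccl8, are therefore given by cluster as well. Cd163 had 78.0 and 278 CPM in the pooled class (ratio 3.56) and 322 and 516 CPM within cluster 9 (1.60, 1.46 to 1.76).

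Within cluster 4 the interferon genes were lower. Of 23 type I interferon genes 21 were past the fold downwards and none upwards, with a median log2 ratio of -0.92, while 3.87% of all genes measured in that cluster were lower. Irf7, the factor that amplifies the interferon response, stood at 106 and 26.7 CPM (0.251, 0.185 to 0.336), Isg15 at 137 and 39.7 CPM and Ifit3 at 95 and 24.0 CPM. Of 11 interferon gamma genes 8 were lower. In cluster 9 the type I interferon genes were lower in 5 of 23, against 2.72% of all genes in that cluster, with Irf7 at 65.7 and 30.2 CPM (0.461) and Isg15 at 57.0 and 44.7 CPM (0.784, 0.601 to 1.02). In the monocyte/macrophage cluster, with only 45 cells without Ccr2, all 23 measured members were lower, where 13.4% of all genes were. After thinning the pooled class, 14.3% of 1434 and 5.49% of 401 macrophages had an Irf7 UMI, against 1.14% and 1.29% of tenocytes. Unthinned the macrophage shares were 29.97% and 18.2%.

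MHC class II genes, which load peptides for CD4 T cells, were lower by more in cluster 9 than in cluster 4, a difference that was not tested. In cluster 9 all 7 measured members were past the fold downwards (2.72% of all genes were), with a median log2 ratio of -1.04: H2-Aa stood at 3370 and 1573 CPM (0.467, 0.449 to 0.485), H2-Ab1 at 2590 and 1221 CPM and Cd74, the invariant chain, at 6331 and 3683 CPM. In cluster 4 none of the 7 was past the fold, H2-Aa having 6176 and 4462 CPM (0.723). In the pooled class all 7 were lower, Ciita, the master activator of these genes, at 120 and 61.1 CPM. An H2-Aa UMI was found in 86.4% and 59.1% of thinned macrophages (91.3% and 71.7% unthinned), against 3.43% and 1.29% of thinned tenocytes. In dendritic cells none of 10 members was past the fold, H2-Aa having 8225 and 7236 CPM.

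Some of the named genes were lower in both main clusters. Ms4a4c, a membrane protein of monocyte descent, had ratios of 0.205 in cluster 4 and 0.214 in cluster 9. Slamf7, a receptor that interferon raises, had 0.387 and 0.392, and Cyp4f18, which inactivates leukotriene B4, 0.430 and 0.341. Apoc2, an activator of lipoprotein lipase, was lower in cluster 4 (137 and 53.9 CPM) and near absent in cluster 9 (24 and 15 UMIs). Colec12, a scavenger receptor for oxidised lipoprotein, was higher in both, at 6.31 and 30.5 CPM in cluster 4 (4.83) and 79.3 and 180 CPM in cluster 9 (2.27). Folr2, a folate receptor of resident macrophages, was higher in cluster 4, at 45.6 and 98.0 CPM, and little changed in cluster 9, at 560 and 618 CPM. Gpnmb, Trem2 and Mrc1 lay between 0.989 and 1.15 in both clusters. Spp1, the osteopontin gene, had 657 and 480 CPM in cluster 4 and 3909 and 1077 CPM in the monocyte/macrophage cluster.

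**Figure D5:**
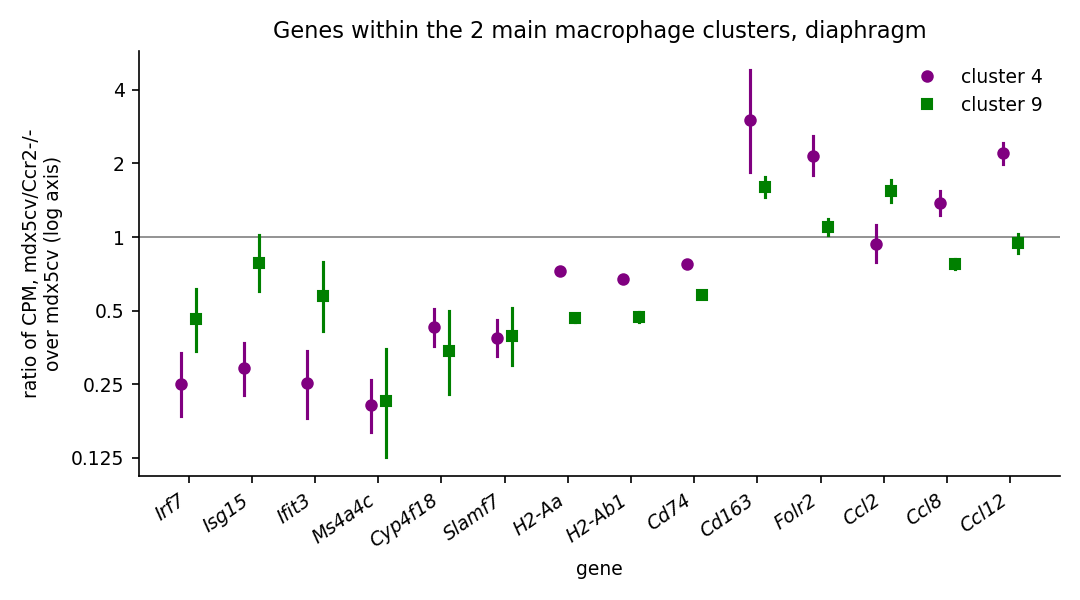
Ratio of CPM (mdx5cv/Ccr2-/- over mdx5cv, log axis) of 14 genes within macrophage cluster 4 (purple circles) and cluster 9 (green squares) of the diaphragm, with exact 95% intervals of counting error. Interferon genes lie lower in cluster 4 (Irf7 0.251, Ifit3 0.252) than in cluster 9 (0.461 and 0.573), MHC class II genes lower in cluster 9 (H2-Aa 0.467) than in cluster 4 (0.723).

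The ligands of CCR2 were all 4 higher in pooled macrophages, Ccl2 at 126 and 279 CPM (2.22), Ccl7 at 105 and 219, Ccl12 at 207 and 375 and Ccl8 at 535 and 813 CPM. Within a cluster 1 of the 4 was past the fold: Ccl12 in cluster 4, at 149 and 328 CPM (2.20, 1.99 to 2.43), and Ccl2 in cluster 9, at 250 and 385 CPM (1.54, 1.39 to 1.71). Ccl8 was lower within cluster 9, at 1825 and 1419 CPM. The count in the pooled class was 2 with cells weighted alike, in thinned cells and at a finer clustering. Efferocytosis genes, by which macrophages take up dead cells, had 5 of 13 higher and 2 lower in the pooled class. Of all genes in the pooled class 6.36% were higher and 3.25% lower. Gas6, a bridge to dying cells, had 196 and 406 CPM, Cd36 165 and 408 CPM and Mfge8 16.8 and 44.6 CPM, while the receptor Axl had 148 and 76.6 CPM. By cluster, 5 of 13 were higher and none lower in cluster 4, and 2 higher and 2 lower in cluster 9. Of all genes, 4.22% were higher and 3.87% lower in cluster 4, and 2.84% and 2.72% in cluster 9. Of 11 cathepsins 1 was higher, Ctsf, and 1 lower, Ctss, at 3267 and 2131 CPM, and within clusters 4 and 9 none was lower. Of 12 iron genes 3 were higher, among them Slc40a1, the iron exporter ferroportin, at 31.7 and 49.1 CPM. Within clusters 4 and 9, 1 of 10 and 1 of 13 iron genes were higher. Fibroblast RNA moved with the pooled class: Col1a1 stood at 83.8 and 298 CPM there, 61.2 and 55.0 CPM in cluster 4, 61.1 and 73.2 CPM in cluster 9 and 861 and 2062 CPM in cluster 31. Its part in the pooled results was not tested.

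Dendritic cells had less Cxcl9 and Retnla and more Ccl17 without Ccr2. The class had 510 and 151 cells, 331 and 81 of them in the cluster named conventional type 2 (cDC2), 143 and 49 in type 1 (cDC1) and 36 and 21 in a migratory cluster with Ccr7. Of 4966 measured genes, 154 (3.10%) were past the fold upwards and 181 downwards. Ccl17, a chemokine for CCR4 on helper and regulatory T cells, stood at 65.2 and 547 CPM (8.39, 7.32 to 9.64). It was higher in each cluster: 142 and 838 UMIs in cDC2, 18 and 92 in cDC1 and 98 and 172 in the migratory cells. The cells behind it were 18 of 331 and 13 of 81 in cDC2. Thinned shares were 3.56% and 10.4%, with 0.571% and 0.324% in tenocytes, and unthinned shares 5.88% and 17.2%. Ccl22, its sister ligand, had 55.3 and 126 CPM in the class and was even within the migratory cells (691 and 713 CPM), where most of it lies. Itgae, the αE integrin of cDC1, had 147 and 293 CPM within cDC1 (2.00, 1.62 to 2.46).

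Cxcl9 and Retnla had the lowest ratios among the dendritic genes that the naming rule admits. Cxcl9, the chemokine of interferon gamma for CXCR3 on T cells, had 499 and 6 UMIs in the class (126 and 2.98 CPM). It came from 15 of 331 and 1 of 81 cDC2 and from 16 of 143 and 2 of 49 cDC1. No thinned cell of the mdx5cv/Ccr2-/- library held it, 0 of 144, which allows up to 2.53%, against 4.4% of 477 (1.99% and 6.67% unthinned). In the lymphocyte class, which should lack it, the thinned share was 0.255% of 392 and 0 of 208, which allows up to 1.76%. Retnla, the resistin-like molecule of type 2 inflammation, had 583 and 52.1 CPM (0.0893), carried by 29 of 331 and 4 of 81 cDC2. It was as low in the quadriceps pair (0.0752), whereas Cxcl9 there had 0.856. Isg15 and Zbp1, a sensor of Z-form nucleic acid, had ratios of 0.387 and 0.375. Cxcl2, a neutrophil chemokine, had 307 and 109 CPM in the diaphragm, a ratio of 0.354, and a ratio of 2.13 in the quadriceps. C-type lectins, receptors for sugars, had 6 of 11 lower and 2 higher, Clec4a1 at 52.5 and 13.9 CPM and Clec4a3 at 98.0 and 42.7 CPM. Markers of macrophages (11 genes) summed to 1179 and 629 CPM in the dendritic class and those of classical monocytes (9 genes, Ccr2 among them) to 1469 and 747 CPM, and their part was not tested. With the diaphragm libraries clustered alone the cDC2 cells joined clusters without a name, and Retnla and Cxcl2 in the 193 and 91 cells left had ratios of 1.64 and 7.76.

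T, NK and innate lymphoid cells, 458 and 219, had higher levels of some activation genes, while Xcl1, Fosb and Gem were lower. Of 5081 measured genes, 340 (6.69%) were past the fold upwards and 148 downwards. Of 29 T cell state genes 8 were higher and 2 lower. Tnfrsf4, the costimulatory receptor OX40 of activated and regulatory T cells, had 10.4 and 90.4 CPM (8.70, 5.11 to 15.8), Ctla4, an inhibitory receptor, 22.1 and 45.2 CPM, and Ifng, the interferon gamma gene, 198 and 313 CPM (1.58). Nearly all Tnfrsf4 lay in the cluster led by Nkg7, Ccl5, Xcl1 and Trbc2, at 25.1 and 237 CPM. Cd163l1, a scavenger receptor of γδ T cells, had 189 and 342 CPM. It lay in the T cell cluster of 141 and 90 cells, where it had 598 and 769 CPM. Among the lowest genes by the naming rule were Xcl1 at 432 and 233 CPM (0.539), Fosb at 688 and 364 CPM (0.528) and Gem at 153 and 82.6 CPM (0.541). Markers of FAPs (10 genes) summed to 1445 and 1929 CPM in the class, and their part was not tested.

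Areg, the growth factor amphiregulin that innate lymphoid cells and regulatory T cells supply to injured tissue, stood at 248 and 122 CPM (0.490, 0.401 to 0.597). Its levels went opposite ways within the class. In the cluster of type 2 innate lymphoid cells it had 779 and 249 CPM, found in 41 of 137 and 12 of 39 cells, and in the cluster with Nkg7 it had 31.8 and 201 CPM. All 6 measured collagens were higher in the cluster of type 2 innate lymphoid cells, where 9.66% of all genes were. The part of fibroblast RNA there was not tested. The thinned shares of cells with an Areg UMI were 10.5% and 6.73% of the class, against 0 of 5993 and 0 of 3486 FAPs, which allows up to 0.0615% and 0.106%. Unthinned they were 10.7% and 9.59%. Cell cycle genes had 4 of 9 higher and none lower in the diaphragm, with Stmn1 at 47.5 and 120 CPM (2.53) and Mki67 at 38.4 and 114 CPM, and 7 of 8 lower in the quadriceps, where 8.82% of all genes were lower.

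A few genes differed in the same direction in nearly every class. Of 4578 genes measured in at least 5 classes, 3 were higher and 2 lower past the fold in all of them (0.109%). Tm9sf1, a protein of endosome membranes, had a median ratio of 1.76 over 5 classes and Hist1h1b, a histone of dividing cells, 2.46 over 5. In macrophages Hist1h1b had a ratio of 4.03, against 0.200 with the diaphragm libraries clustered alone and 0.281 at resolution 0.5. In the quadriceps Tm9sf1 was higher past the fold in 0 of 5 classes and lower in 1 (median 0.793). Hist1h1b was higher there in 3 of 4 and lower in 1 (2.90). Rps27rt, a retrotransposed copy of a ribosomal gene that shares reads with its parent, had a median ratio of 1.78 over 7 classes. Rps27rt lies on chromosome 9, 9.13 Mb from Ccr2, and was lower in all 6 quadriceps classes (0.540). Wdfy1 had a median ratio of 0.352 over 6 classes and Mndal, an interferon-inducible nuclear protein of the Ifi200 family, 0.517 over 6. In the quadriceps Wdfy1 was lower past the fold in 5 of 5 classes (0.436) and Mndal in 3 of 6 (0.631). Both lie on chromosome 1, Wdfy1 at chr1:79702262-79776143 and Mndal at chr1:173849126-173942491 (GRCm38).

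The Ifi200 family gene Ifi202b was all but private to the mdx5cv/Ccr2-/- libraries. In FAPs it had 1 UMI in the mdx5cv diaphragm and 7645 in the mdx5cv/Ccr2-/- diaphragm (ratio 8790, 1577 to 347220), and in macrophages 1 and 717. In the quadriceps it was 0 and 179 CPM in FAPs. Thinned FAPs held it in 0 of 5993 and 1020 of 3486 cells (29.3%), with 1.03% of thinned lymphatic endothelial cells of the mdx5cv/Ccr2-/- library (2.73% unthinned), the class with the lowest share shown here. The median depths of those FAPs were 6418 and 10151 UMIs, and unthinned 71.3% of the mdx5cv/Ccr2-/- FAPs had it. Its relatives were lower: Mndal in FAPs had 172 and 97.9 CPM and Ifi203 255 and 151 CPM, both below 1 in all 8 FAP clusters. These genes are near-identical in parts, so reads can be split among them, and the deletion, and any difference in strain between the mice cannot be told apart.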

How the data were processed

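Per the file headers, the deposited matrices hold counts, whole UMIs per gene and barcode, that the authors made with Cell Ranger 6.1.2. Per the submitters' processing notes the build was mm10; with annotation and aligner settings not given in the sources used here. From these counts, a barcode was retained if it had 500 UMIs and 300 genes or more and no more than 15% of UMIs from mitochondrial genes, and likely doublets were removed by the Scrublet function of scanpy 1.11.5, at an expected 0.8% per 1000 barcodes. All 4 libraries were clustered together (2000 variable genes, 30 components, 15 neighbours, leidenalg 0.10.2, resolution 1) without batch correction, and clusters were named from markers. UMIs were summed per class, and ratios of CPM were given exact 95% intervals (scipy 1.17.1, with Python 3.11.15, numpy 2.4.6, pandas 2.3.3 and matplotlib 3.10.9). Log2 ratios used CPM + 5. UMIs share PCR and capture, so intervals and the floor of 3 counts for a value of 0 cover counting error only. There is 1 library a group, so no test was made.

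Named genes were, in each class, the 6 highest and 6 lowest ratios among genes with at least 50 CPM, 200 UMIs and 25% of the level of the class where the gene was highest, leaving out ribosomal, mitochondrial, haemoglobin, immunoglobulin and sex-linked marker genes. Members of the gene lists were added, up to 4 by size and those whose role is explained, with genes past the fold in every class. Genes read by cluster were chosen after their values were seen. The comparison, its members and its lists were chosen with earlier results of these data known. On simulated data with 200 genes changed by 2-fold, 100% were recovered in FAPs (5656 genes), macrophages (5395) and myogenic cells (5313), and 1.88% of unchanged genes passed the fold in myogenic cells. The simulated counts came from the pooled profile of each class with counting error only, and the changed genes had at least 50 CPM. High recovery was therefore built in. The simulation cannot show how differences between cells, animals or dissections affect the results. Values of some genes are not reported here.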

Additional observations from a re-analysis of the deposited data

Results flagged for a closer look

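Several values lay on opposite sides of 1 in the diaphragm and the quadriceps, with intervals that do not hold 1 in either muscle. With 1 library a group, the difference between the muscles was not tested for any of them. Among shares of all cells, the ratio of B lineage cells was 0.560 in the diaphragm and 1.79 in the quadriceps, that of myogenic cells 0.747 and 1.53, and that of clusters without a name 1.78 and 0.807.

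In FAPs Col4a5 had 1.55 in the diaphragm and 0.430 in the quadriceps. In tenocytes Chad had 1.77 and 0.415, and Angptl7 had 1.74 and 0.387. In the myogenic class the fibre genes Myh3, Tnni1, Myl4 and Klhl41 had 0.0246, 0.0301, 0.0478 and 0.0528 in the diaphragm and 2.54, 3.24, 2.08 and 2.25 in the quadriceps. The quadriceps values also rest on few cells. In the mdx5cv/Ccr2-/- quadriceps the 5 richest cells for each gene held 49 of 53, 133 of 152, 91 of 137 and 62 of 82 UMIs. Quadriceps cells with a UMI were 2.84% (mdx5cv) and 2.31% (mdx5cv/Ccr2-/-) for Myh3 and 8.52% and 4.34% for Tnni1. For Myl4 they were 7.39% and 10.1%, and for Klhl41 3.41% and 5.20%. Among dendritic genes Ccl22 had 2.28 and 0.327, Anxa3 2.10 and 0.485, Fabp5 2.04 and 0.315, and Cxcl2 0.354 and 2.13. In T, NK and innate lymphoid cells Stmn1 had 2.53 and 0.212, Hist1h1e 1.84 and 0.217, and Areg 0.490 and 7.81, the last from 22 UMIs in the quadriceps.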

How the results depend on the processing

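No paired analysis was possible because each group had 1 library. Of 765 values of 96 named gene ratios under the alternatives, 6 changed sides of 1, 636 stayed within their interval and 123 moved further. Of 512 medians of 43 lists, 2 changed sign and 54 moved. Where not stated otherwise the cause was not tested.

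With the diaphragm libraries clustered alone, the share ratio was 0.625 for immune cells, 0.872 for dendritic cells and 0.997 for FAPs. At resolution 0.5 it was 1.12 for FAPs and 3.99 for tenocytes, and at resolution 2 it was 2.70 for tenocytes.

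Genes past the fold numbered 61 in FAPs, 240 in tenocytes, 181 in endothelial, 489 in lymphatic endothelial, 472 in myogenic cells, 526 in macrophages, 335 in dendritic cells and 488 in the lymphocyte class. In that order they were 1807, 2197, 1765, 2414, 2693, 3151, 2443 and 2361 with no filter on CPM, where more genes are tested, and 31, 61, 35, 49, 140, 215, 113 and 58 at 50 CPM and 200 UMIs, where fewer are. Stricter cell filters gave 550 in tenocytes, and clustering the diaphragm alone 473 in tenocytes and 854 in dendritic cells. With cells weighted alike there were 378 in tenocytes, 289 in endothelial and 848 in myogenic cells. In thinned cells there were 378 in endothelial, 293 in lymphatic endothelial and 296 in myogenic cells, 844 in macrophages and 309 in the lymphocyte class. With doublets kept there were 902 in lymphatic endothelial cells. With equal UMI totals, chosen after seeing the data, there were 268 in FAPs, 298 in endothelial cells and 296 in the lymphocyte class. The 5 genes past the fold in all their classes became 2 with stricter cell filters, 3 at resolutions 0.5 and 2, and 1 in thinned cells.

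The 17 lower type I interferon genes of macrophages were 11 with doublets kept and 5 in cluster 9 alone. The 13 of dendritic cells were 20 without and 5 with the strict filter. The 15 higher cell cycle genes of myogenic cells were 7 with cells weighted alike, 2 in thinned cells and 9 with the strict filter. The 4 higher CCR2 ligands of macrophages were 2 at resolution 2, with cells weighted alike and in thinned cells, and 1 in cluster 4 or cluster 9 alone. The 7 lower MHC class II genes were 0 in cluster 4 alone. Values by cluster were chosen after seeing the data.

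The collagen median of tenocytes changed sign, to 0.17, at resolution 0.5. In macrophages Top2a had 4.07 in the main clustering, 0.758 with the diaphragm clustered alone and 0.766 at resolution 0.5. Hist1h1b had 4.03, 0.200 and 0.281. With the diaphragm clustered alone, the median of C-type lectins in dendritic cells changed sign, to 1.26. Retnla and Cxcl2 there had 1.64 and 7.76, against 0.0893 and 0.354 in the main clustering.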
